A study of Eisenia fetida with 15 samples.

Results

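The 12 libraries of earthworms kept in lindane soil were taken as one pool and set against the 3 control libraries of the same series. The pool was chosen by the library codes alone, so it holds 12 of the 15 libraries and uses no measured value. The worms were adult *Eisenia fetida*, a species of compost heaps that is a standard animal for testing soils, and body sections were the source of RNA. Lindane was given at a nominal 2.4 mg per kg of soil. By the codes, the exposed worms of triplets 0d-7d and 0d-28d lived for 7 d and 28 d on freshly spiked soil, and those of triplets 30d-7d and 30d-28d lived equally long on soil whose lindane had aged for 30 d. Each of these 4 triplets has 3 libraries, and the control libraries are known by that code alone. The labels' protocol also names worms sampled at 0 d without exposure, and by the codes these would be the control libraries. The treatment wording attached to each library is displaced by 1 triplet against its code: it calls the 0d-7d libraries unexposed, and it gives the control libraries 28 d in aged soil. The groups below follow the codes, which are also the column names of the deposited table, and the closing paragraphs give the result under the other wording. A control that had spent the same number of days in clean soil was not analysed here, so time in the test soil and lindane cannot be told apart. The labels do not say whether a library is 1 worm or several, so p-values reflect spread between libraries, which may be technical.

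Lindane is an organochlorine insecticide. In nerve cells of insects and vertebrates it blocks chloride channels opened by the transmitter GABA, which removes inhibition and leaves neurons over-excited. In animals, foreign chemicals of this kind are commonly oxidised by phase I enzymes such as cytochrome P450s, coupled to glutathione or sugars by phase II enzymes, and pumped out by ABC transporters. Stress of this kind is also read from heat shock proteins, antioxidant enzymes and metal-binding metallothioneins.

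Reads were counted by the authors on a de novo assembly of 241846 unigenes (assembled transcripts, without a genome), of which 58313 carried a protein match and 14117 a match whose name says what the protein is. The exposed libraries held 13182058 to 23619530 counted reads and the control libraries 20167141 to 28022746. Unigenes with at least 1 read numbered 131357 to 156686 in exposed libraries and 153522 to 157576 in control libraries. Libraries resembled each other about equally within and between the pools: Spearman's rho over the 101090 tested unigenes averaged 0.678 over the 66 pairs of exposed libraries, 0.679 over the 36 pairs of an exposed and a control library, and 0.66 over the 3 control pairs. The rho values are descriptions across unigenes of libraries that share one assembly.

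Some libraries stood apart, in both pools. Library 3 of the 0d-28d triplet had 0.00261% of its reads on globins, the oxygen carriers of worm blood, against 0.301% to 1.95% in the control libraries, and 0.477% on germ cell and sperm proteins, against 0.028% to 0.0602%. Library 2 of the control triplet was 1 of 4 libraries with high levels of a shared group of ferritin, immune and matrix unigenes, and the other three were exposed. Where leaving out either library moved a list median by over 1.5 times or turned its sign, the value without it stands beside the median. This rule covers those 2 libraries only. A median without such a value can still rest on another library, and values without other libraries are given for some lists.

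**Figure D1:**
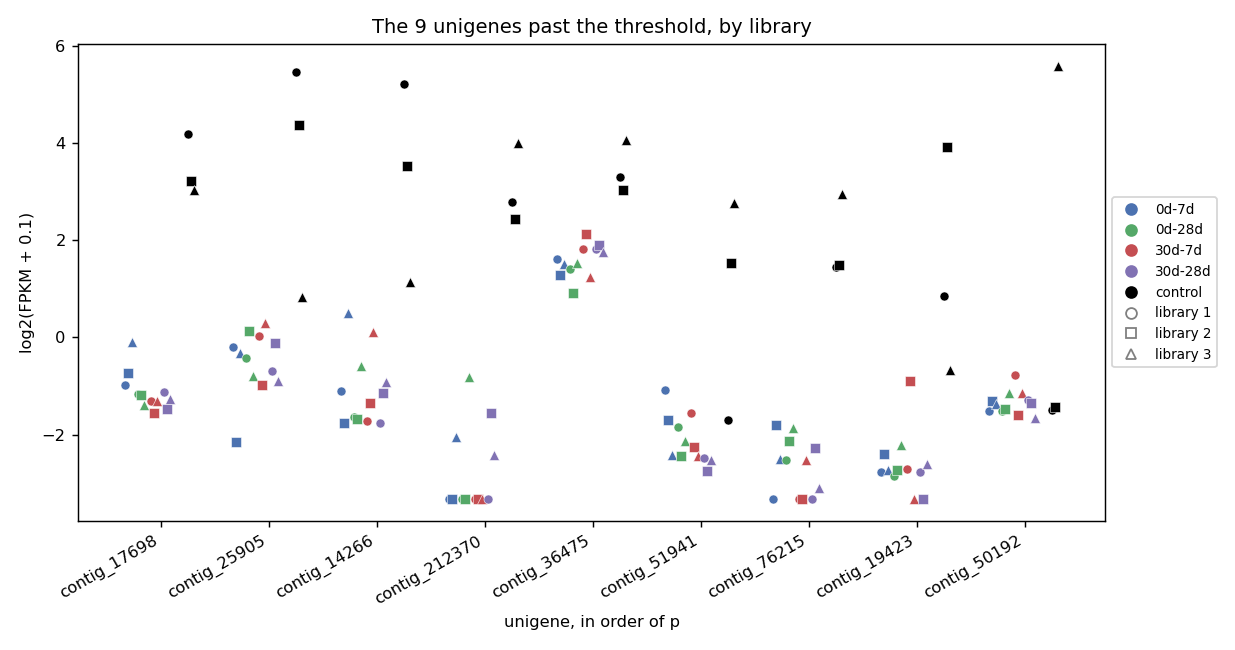
Log2(FPKM + 0.1), where FPKM is read fragments scaled to unigene length and library size, for each of the 9 unigenes past the threshold (x axis, in order of p) in every library; colours are the triplets and shapes the library numbers, with exposed libraries left of the black control libraries. For contig_17698 the 12 exposed libraries sit between 0.241 and 0.831 FPKM, all below the 3 control libraries, while for contig_50192 a single control library stands apart.

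Across all unigenes the pooled exposed libraries differed from control at few places, and every difference past the threshold was a fall. Of 101090 unigenes tested with edgeR's quasi-likelihood test (Benjamini-Hochberg adjusted p under 0.05), 9 fell in exposed worms (0.0089%) and 0 rose (0.0%). Of the 9, 1 passed when the 4 exposed triplets were averaged in a fit of all 5 triplets, and without the 0d-7d or the 30d-28d triplet 2 unigenes were called, 1 of them among the 9. At an unadjusted p under 0.05, 2284 were lower in exposed worms (2.26%) and 2158 higher (2.13%), 4442 in all (4.39%). Unigenes lower at that p had a median log2 change of -1.49 and a median level of 7.91 FPKM in the higher pool, whereas those higher had a median of 4.13 and a median level of 2.1 FPKM. The first unigene higher in exposed worms stood at place 21 in order of p, and the 16 unigenes with the lowest p were all lower. DESeq2 called 323 unigenes, 249 higher and 74 lower, including 8 of the 9. limma-voom called 16, all lower, including 4 of the 9.

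**Figure D2:**
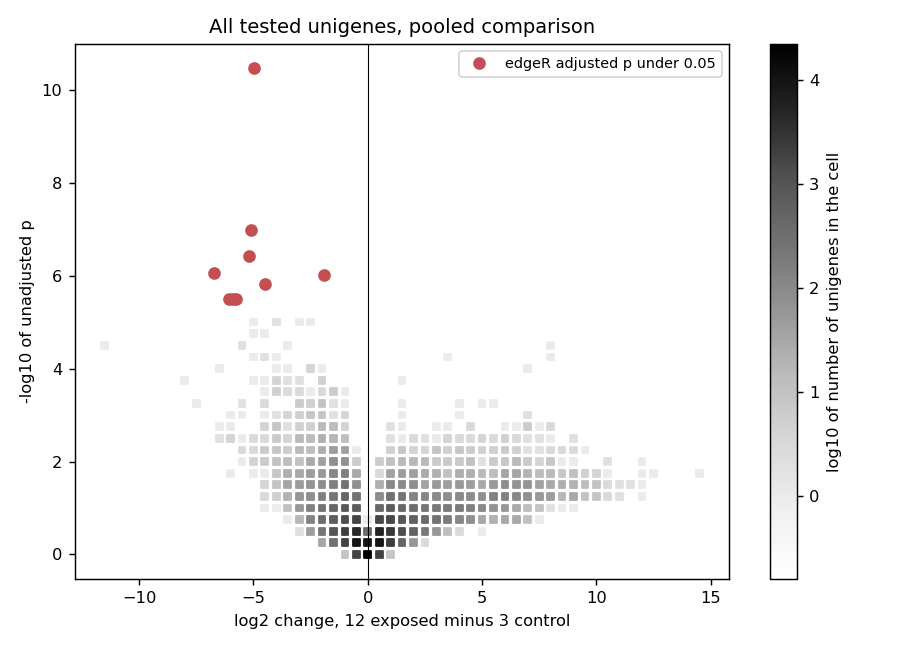
Each grey cell counts tested unigenes by log2 change of the 12 exposed minus the 3 control libraries (x axis) and -log10 of the unadjusted p (y axis), darker for more unigenes; red points are those with an edgeR adjusted p under 0.05. The 9 red points all lie left of 0, with log2 changes of -6.71 to -1.91, while the right side extends to larger changes at higher p.

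The unigene with the lowest p was contig_17698, 4802 bases long and without a protein match. In exposed worms its level was 0.241 FPKM at the lowest, 0.329 at the median and 0.831 at the highest, against 18.1, 9.18 and 8.09 FPKM in control libraries 1, 2 and 3. All 12 exposed libraries lay far below all 3 control libraries, of which library 1 was the highest. The log2 change was -4.97 (SE 0.304, edgeR adjusted p = 3.51e-06). The 0d-7d triplet averaged 0.579 ± 0.223 FPKM, the 0d-28d triplet 0.321 ± 0.0359, the 30d-7d triplet 0.284 ± 0.0375 and the 30d-28d triplet 0.313 ± 0.0502 (SD, n = 3 each). In the fit of 5 triplets, which takes its spread from all 15 libraries, each triplet against the same 3 control libraries also passed for this unigene. The log2 changes were -4.36, -5.12, -5.38 and -5.22, and contig_17698 was the only one of the 9 to pass there (1 unigene called in each, 0.000989%). It passed when any 1 of the 15 libraries was left out, with log2 changes between -5.18 and -4.50.

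Another 3 of the 9 unigenes had no protein match and no overlap between the pools. contig_25905, 775 bases long, had 0.126, 0.673 and 1.12 FPKM (lowest, median, highest) in exposed worms, against 44.0, 20.6 and 1.67 FPKM in control libraries 1 to 3. It was lower in every exposed library, though control library 3 was close to the exposed range, and its log2 change was -5.10 (SE 0.551, edgeR adjusted p = 0.00527). contig_212370, 742 bases long, had 0 FPKM at the exposed median and 0.47 at the highest, against 6.78, 5.32 and 15.9 FPKM in control. Most exposed libraries held no read of it, and its log2 change was -6.71 (SE 0.855, edgeR adjusted p = 0.0196). contig_19423, 1540 bases long, had 0.05 FPKM at the exposed median and 0.434 at the highest, against 1.70, 15.1 and 0.526 FPKM in control. Its exposed libraries were all lower, but control library 3 exceeded the highest of them only slightly. Its log2 change was -6.08 (SE 0.859, edgeR adjusted p = 0.0358), and -3.70 without control library 2 (adjusted p = 0.386).

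The other unmatched unigene, contig_50192 of 4423 bases, rested on 1 library. It had 0.218, 0.289 and 0.489 FPKM in exposed worms (lowest, median, highest), against 0.254, 0.271 and 48.2 FPKM in control libraries 1, 2 and 3. Control libraries 1 and 2 lay inside the exposed range, so that the log2 change of -5.76 (SE 0.815, edgeR adjusted p = 0.0358) came from control library 3. Without that library the log2 change was 0.16, with an adjusted p of 1. Its exact two-sided permutation p, on means of log2(CPM + 1), was 0.268.

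Of the 4 called unigenes with a protein match, 1 had a name that says what the protein is. contig_51941 matched a proactivator polypeptide of the Pacific oyster; in vertebrates this precursor, prosaposin, is cut into the saposins that help lysosomal enzymes break down sphingolipids. Its level was 0.048, 0.098 and 0.375 FPKM in exposed worms (lowest, median, highest), against 0.21, 2.78 and 6.66 FPKM in control. Control library 1 lay within the exposed range, and the log2 change was -4.49 (SE 0.598, edgeR adjusted p = 0.0256). Without control library 3 it was -3.40 (adjusted p = 0.375).

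The remaining 3 matched proteins without a described function. contig_14266, whose match is in the sea urchin *Strongylocentrotus purpuratus*, had 0.194, 0.323 and 1.31 FPKM in exposed worms, against 37.2, 11.4 and 2.11 FPKM in control (log2 change -5.19, SE 0.619, edgeR adjusted p = 0.0128). contig_36475 had 1.78, 2.89 and 4.3 FPKM in exposed worms, against 9.73, 8.11 and 16.7 FPKM in control. Its log2 change of -1.91 (SE 0.246, edgeR adjusted p = 0.0196) was the smallest in size of the 9, and its exposed triplet means ran between 2.38 and 3.44 FPKM. contig_76215 had 0, 0.075 and 0.185 FPKM in exposed worms, against 2.64, 2.73 and 7.69 FPKM in control (log2 change -5.88, SE 0.831, edgeR adjusted p = 0.0358).

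In 7 of the 9 unigenes all 12 exposed libraries lay below all 3 control libraries, against 129 of all 101090 (0.128%). The same 7 were separate in the library-scaled read counts (CPM) that were tested. The 9 were picked for low p in these same libraries, so their separation is a description and no further evidence for the calls. No exposed library held more than 3 reads of contig_212370, 8 of contig_76215, 9 of contig_19423 or 10 of contig_25905. These unigenes met the read filter through their control libraries. The highest control library was library 3 for 5 of the 9, library 1 for 3 and library 2 for 1. Leaving out control library 3 kept 4 of the 9 past the threshold, with 5 called in all, whereas leaving out control library 1 or 2 kept 8 of the 9 each, with 16 and 35 called in all. Without control library 3 the log2 change was -6.07 for contig_212370 (edgeR adjusted p = 0.208), -1.55 for contig_36475 and -5.20 for contig_76215 (0.295 each), and without control library 1 it was -3.91 for contig_14266 (0.081). Leaving out an exposed library also lost calls: 5 of the 9 were kept without 0d-28d library 3, and 3 when 0d-7d library 3, 30d-7d library 1, 30d-28d library 1 or 30d-28d library 3 was the one left out.

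The pooling itself was tested by asking whether the 4 exposed triplets differed among themselves. edgeR's test over the 3 differences called 0 of 101090 unigenes (0.0%), with 6239 at an unadjusted p under 0.05 (6.17%). DESeq2's likelihood ratio test called 528, limma on log2(FPKM + 1) called 2 and limma-voom called 0. For the 9 unigenes above, the unadjusted p among the exposed triplets ran from 0.0636 for contig_17698, whose 0d-7d libraries were the highest of the 12, to 0.991 for contig_50192. The 9 were called in a pooled fit that counts differences among exposed triplets as spread, which disfavours unigenes whose triplets differ. Their p-values here are therefore a description and no support for the pooling. Differences among triplets too small for 3 libraries each are not shown to be absent.

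**Figure D3:**
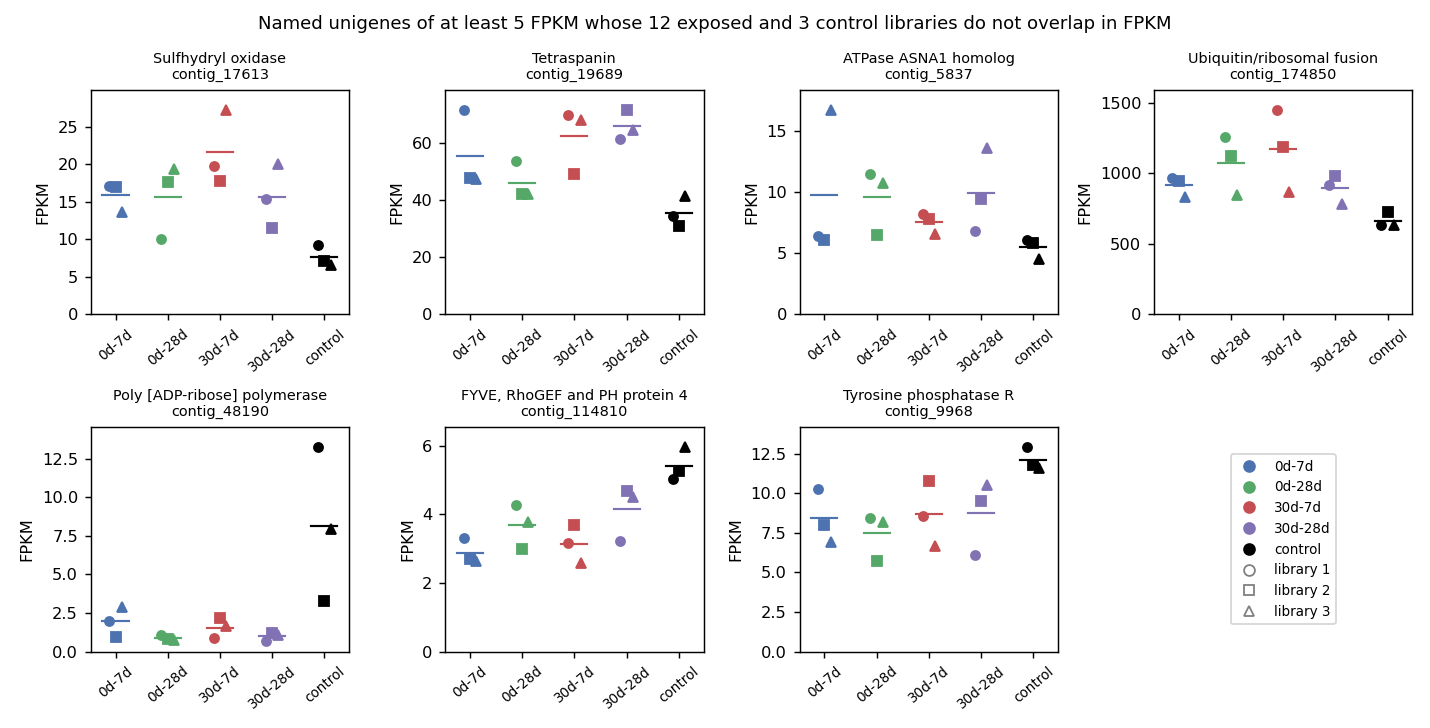
FPKM of the 7 unigenes with a descriptive name and at least 5 FPKM whose exposed libraries do not overlap the control libraries in FPKM, by triplet (x axis, exposed left of control); points are libraries and bars triplet means. In the upper row all 12 exposed libraries lie above the 3 control libraries in FPKM and in the lower row all lie below, but none passed the adjusted threshold and the margins are narrow for the ATPase ASNA1 homolog, with 6.08 FPKM in the lowest exposed and 6.06 in the highest control library.

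Unigenes whose 2 pools did not overlap in FPKM were rare in both directions, with 95 whose 12 exposed libraries were all above control (0.094%) and 129 all below. Those with a descriptive name and at least 5 FPKM in the higher pool numbered 4 above and 3 below, and they were picked for this separation, so their values are descriptions. In the CPM that were tested, 5 of these 7 did not overlap either. Sulfhydryl oxidase, an enzyme that forms disulfide bonds in proteins, matched contig_17613. It had 10.1, 17.4 and 27.2 FPKM in exposed worms (lowest, median, highest), against 9.24, 7.10 and 6.60 FPKM in control, a log2 change of 1.15 (SE 0.298, edgeR adjusted p = 0.894). A tetraspanin, a membrane protein that organises others in the membrane, matched contig_19689, with 42.1, 57.6 and 71.7 FPKM in exposed worms, against 34.5, 30.9 and 41.6 FPKM in control. Its log2 change was 0.70 with an SE of 0.240. The ATPase ASNA1 homolog contig_5837, which in other animals and yeast guides tail-anchored proteins to membranes, had a log2 change of 0.71, and its pools overlapped in CPM. contig_174850, a fusion of ubiquitin and a ribosomal protein, had 782 to 1451 FPKM in exposed worms, against 631 to 725 FPKM in control. In CPM its pools overlapped, at 287 to 820 in exposed worms, against 280, 342 and 292 in control.

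On the lower side stood contig_48190, a poly [ADP-ribose] polymerase, one of a family that attaches ADP-ribose chains to proteins, best known in DNA repair. Its level was 0.694, 1.07 and 2.91 FPKM in exposed worms (lowest, median, highest), against 13.2, 3.29 and 7.92 FPKM in control. Its log2 change was -2.60 (SE 0.410, edgeR adjusted p = 0.0835), which put it at place 13 in order of p, and the triplets alone gave -2.08, -3.21, -2.37 and -3.06 against the same control libraries. It did not pass in the main fit. It passed in DESeq2 with an adjusted p of 0.000171, and with 0.0234 without control library 2, the lowest of its 3 control libraries. Its values without control library 1 or 3 are not given here. contig_114810, a FYVE, RhoGEF and PH domain protein that in other animals acts on small GTPases of the actin skeleton, had a log2 change of -0.69. contig_9968, a receptor-type tyrosine phosphatase, had 5.73, 8.32 and 10.8 FPKM in exposed worms, against 12.9, 11.8 and 11.6 FPKM in control, a log2 change of -0.51.

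**Figure D4:**
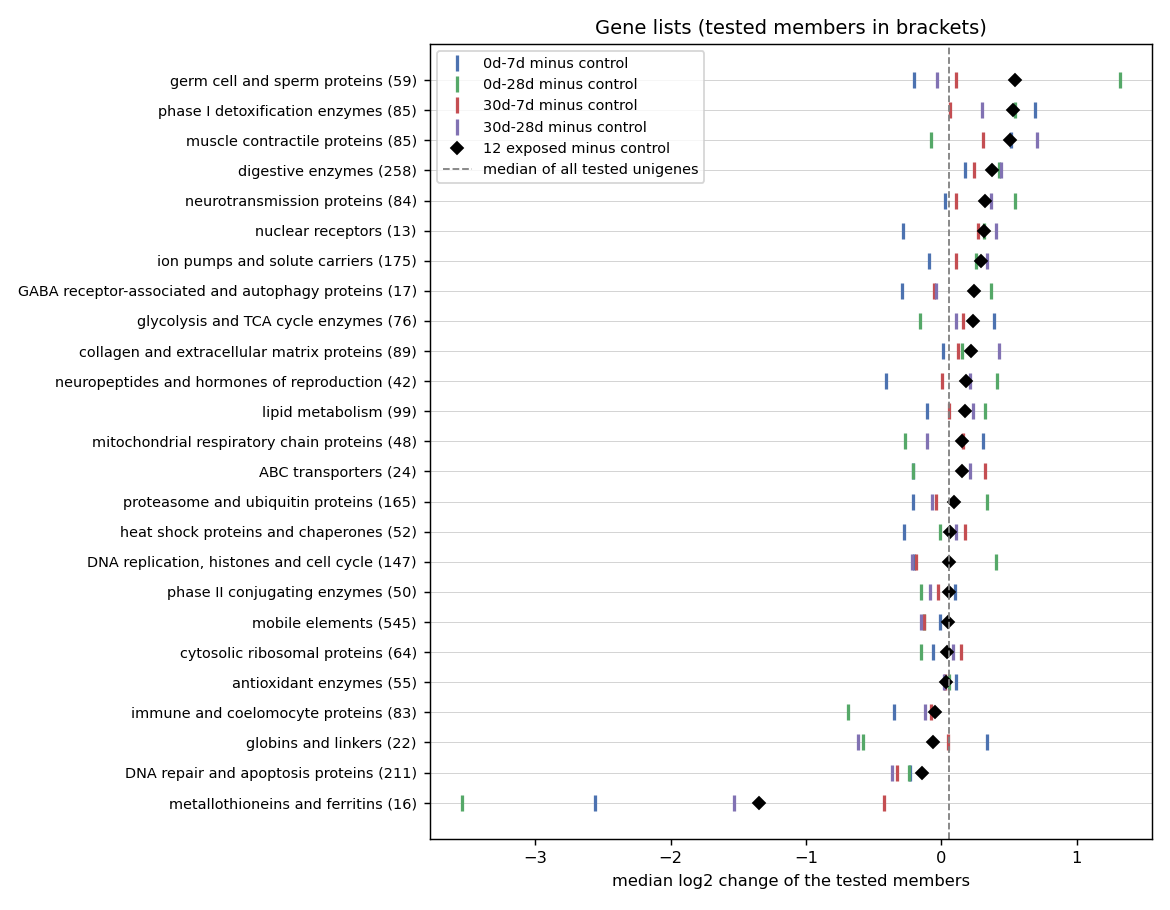
Median log2 change of the tested members of each gene list (y axis, number of members in brackets) for the 12 exposed minus control libraries (black diamonds) and for each exposed triplet minus the same control libraries (coloured ticks); the dashed line is the median of all tested unigenes, 0.06. Metallothioneins and ferritins lie lowest, at -1.35, and phase I enzymes, muscle and germ cell lists lie at 0.51 to 0.54, with triplets that spread widely around them.

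None of the 26 gene lists held a unigene past the adjusted threshold, so each list is described by its counts beside those of all unigenes, of which 53.8% had a positive log2 change and whose median log2 change was 0.06. The target of lindane could hardly be read from the names. Ligand-gated chloride channels had 1 tested unigene by name, contig_11568, and that one is named for a GABA receptor-associated protein, which is not a channel. Its level was 66.0, 154 and 465 FPKM in exposed worms (lowest, median, highest), against 130, 268 and 177 FPKM in control, a log2 change of -0.09, which was 0.22 without control library 2 and -0.02 without 0d-28d library 3. Among 34 tested unigenes named chloride channel protein, a search added after values were seen, 18 had a positive log2 change (52.9%). At an unadjusted p under 0.05, 2 were lower (5.88%, against 2.26% of all unigenes) and 0 higher. The lowest p was that of First_Contig734, with 0.026 to 0.546 FPKM in exposed worms, against 6.78, 0.084 and 6.21 FPKM in control (log2 change -4.25, edgeR adjusted p = 0.258).

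Proteins of nerve signalling had 63 of 84 tested members above 0 on the log2 scale (75.0%) and a list median of 0.32, with 4 higher (4.76%, against 2.13% of all unigenes) and 0 lower at an unadjusted p under 0.05. Their most abundant member, a protein named for binding the vesicle protein synaptobrevin (contig_6285), had 63.7, 83.3 and 103 FPKM in exposed worms, against 68.1, 71.2 and 68.1 FPKM in control. The member with the lowest p was the potassium channel Shaker (contig_51871), which helps end the action potential; it had 0.699 to 1.49 FPKM in exposed worms, against 0.648, 0.307 and 0.54 FPKM in control, a log2 change of 0.98 (SE 0.373, edgeR adjusted p = 0.999). The triplets gave list medians of 0.03, 0.54, 0.11 and 0.37.

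Phase I enzymes, which oxidise foreign chemicals, had 62 of 85 members above 0 on the log2 scale (72.9%), with a list median of 0.53. At an unadjusted p under 0.05, 4 were higher (4.71%, against 2.13% of all unigenes) and 0 lower. The lowest p was that of a flavin-containing monooxygenase (contig_65052), with 1.02, 4.16 and 12.3 FPKM in exposed worms and 0.729, 1.45 and 2.27 FPKM in control, a log2 change of 1.85 (SE 0.664, edgeR adjusted p = 0.999). The 0d-7d triplet had a list median of 0.69, the 0d-28d triplet 0.55, the 30d-7d triplet 0.07 and the 30d-28d triplet 0.30. The pooled median was 1.13 without control library 2 and 0.28 without control library 1. Phase II enzymes, which couple the products to soluble groups, had 28 of 50 positive and a median of 0.05 (0.43 without control library 2, 0.10 without 0d-28d library 3 and -0.17 without control library 1). ABC transporters had 15 of 24 positive and a median of 0.15 (0.32 without control library 2 and 0.40 without control library 3), with no member past an unadjusted 0.05 in either. The pi-class glutathione S-transferase contig_21681 had 4.32, 22.2 and 44.6 FPKM in exposed worms, against 13.9, 26.5 and 9.88 FPKM in control.

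Of the classical stress lists, antioxidant enzymes and heat shock proteins lay near the median of all unigenes, while metallothioneins and ferritins, given below, did not. Antioxidant enzymes had a median of 0.03 over 55 members, which was 0.28 without control library 2. Heat shock proteins and chaperones had 0.07 over 52, which was 0.03 without 0d-28d library 3 and 0.16 without control library 3. The most abundant of these, a glutathione peroxidase that reduces peroxides (contig_1215), had 17.96, 1414 and 2303 FPKM in exposed worms, against 539, 1104 and 1761 FPKM in control. The heat shock protein 70 unigene contig_645 had 237, 453 and 553 FPKM in exposed worms, against 597, 283 and 455 FPKM in control, a log2 change of -0.02 (SE 0.310). Catalase contig_28015, which breaks down hydrogen peroxide, had the lowest p of the antioxidant list: 0.039, 2.86 and 10.5 FPKM in exposed worms, against 8.43, 45.5 and 10.04 FPKM in control, a log2 change of -2.57 (SE 0.843, edgeR adjusted p = 0.999). The pools overlapped.

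Metallothioneins and ferritins, which bind metals and store iron, had the lowest list median, -1.35, with 2 of 16 members positive. That median rested on control library 2, without which it was 4.09. Of the 16, 10 were at least 10 times higher in control library 2 than in the other control libraries. Those 10 took 2.15% of the reads of control library 2, against 0.00145% and 0.0034% in control libraries 1 and 3, and in the exposed pool they took 1.54% in library 1 of 30d-7d, 0.728% in library 3 of 30d-28d, and at most 0.215% elsewhere. The ferritin First_Contig2165 had a median of 0.353 and a highest value of 7563 FPKM in exposed worms, against 0.62, 6809 and 0.245 FPKM in control. Immune and matrix unigenes were high in the same libraries: a bactericidal permeability-increasing protein (First_Contig6794) reached 4782 FPKM in library 1 of 30d-7d, against 3401 FPKM in control library 2 and 0.164 and 0.217 FPKM in control libraries 1 and 3. The widely expressed ferritin contig_63 had 544, 1954 and 2709 FPKM in exposed worms, against 1078, 1496 and 2475 FPKM in control, a log2 change of 0.18 (SE 0.376).

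The DNA repair and apoptosis list leaned lower, with 85 of 211 members positive (40.3%), a median of -0.14 and 17 members lower at an unadjusted p under 0.05 (8.06%, against 2.26% of all unigenes) and 0 higher. Poly [ADP-ribose] polymerases, separated after values were seen, made up 140 of the 211. They had 51 positive, a median of -0.45 and 15 lower at that p (10.7%), whereas the other 71 had a median of -0.01 and 2 lower (2.82%), a median that was 0.14 without control library 2 and -0.05 without 0d-28d library 3. The median of the whole list was -0.26 without control library 2 and -0.05 without control library 3. The median of the polymerases was -0.17 without control library 1, -0.56 without control library 2 and -0.14 without control library 3. Apart from contig_48190, the lowest p values were those of contig_111508, with 0.08 to 1.40 FPKM in exposed worms, against 10.3, 0.884 and 0.881 FPKM in control, and of contig_32145, with 2.58 to 7.79 FPKM, against 26.05, 3.53 and 8.50 FPKM. In both, control library 1 was the one above the exposed range by a wide margin. The most abundant member, contig_14033, had a log2 change of -0.0047 with an SE of 0.390. These unigenes can share sequence, and how reads were shared among near-identical copies is not given in the sources used here.

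**Figure D5:**
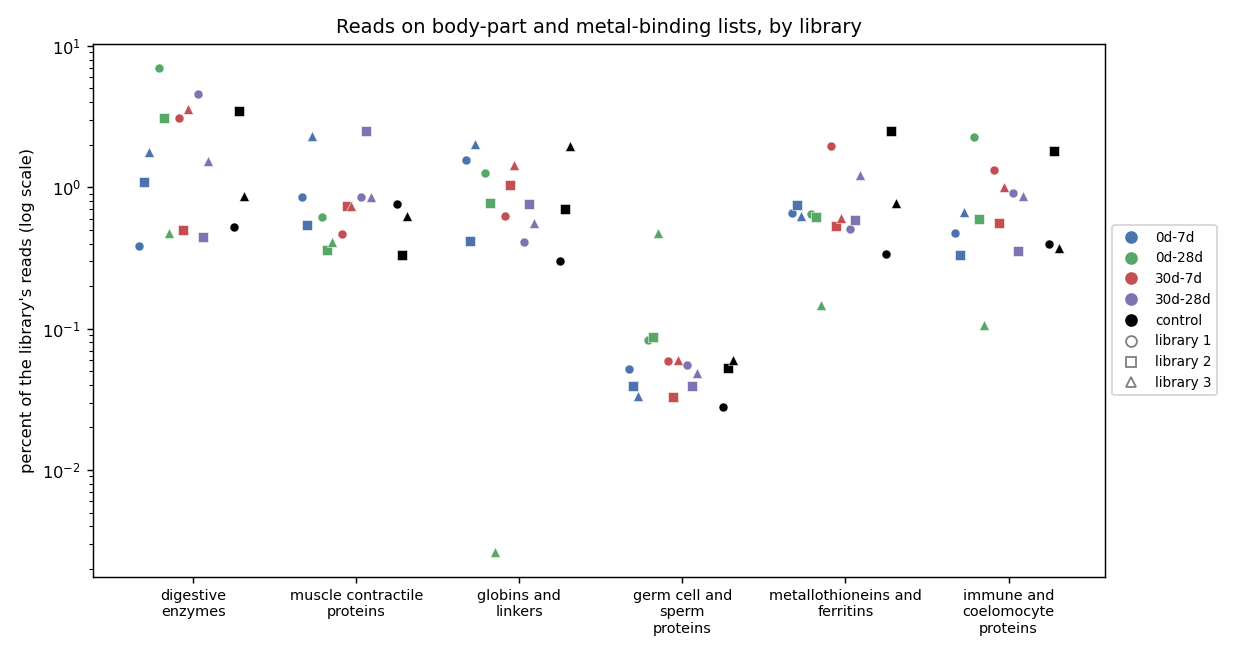
Percent of each library's counted reads (y axis, log scale) on 6 lists of proteins typical of a body part or of metal binding; exposed libraries, coloured by triplet, stand left of the black control libraries, and shapes give the library number. Digestive enzymes range from 0.387% to 6.96% in exposed and from 0.523% to 3.48% in control libraries, and library 3 of 0d-28d is alone at 0.00261% of reads on globins.

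The RNA came from body sections, so fewer cells of a type and less RNA per cell cannot be told apart, and markers of body parts varied widely between libraries of 1 triplet. Digestive enzymes took 0.387%, 1.67% and 6.96% of reads in exposed libraries (lowest, median, highest), against 0.523%, 3.48% and 0.864% in control libraries 1, 2 and 3. Of 258 digestive enzymes, 173 had a positive log2 change (67.1%), and the median was 0.37, which was 0.97 without control library 2. At an unadjusted p under 0.05, 15 were higher (5.81%, against 2.13% of all unigenes) and 12 lower (4.65%, against 2.26%). Lumbrokinase (contig_150), a gut protease that dissolves fibrin, had 1.12, 1656 and 17735 FPKM in exposed worms, against 1.51, 700 and 66.4 FPKM in control, a log2 change of 4.99 with an SE of 3.25. Exposed libraries lay both below and far above all control libraries. Chitinase contig_63398 had the lowest p of the list, with 5.02, 9.61 and 49.6 FPKM in exposed worms, against 17.4, 8.36 and 646 FPKM in control (edgeR adjusted p = 0.520), and only control library 3 stood above the exposed range.

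Muscle proteins took 0.358%, 0.737% and 2.5% of reads in exposed libraries, against 0.764%, 0.332% and 0.622% in control. Of 85 members, 64 had a positive log2 change (75.3%), and the median was 0.51, while the 0d-28d triplet alone gave -0.08. At an unadjusted p under 0.05, 2 were higher (2.35%, against 2.13% of all unigenes) and 0 lower. Twitchin (contig_136036), a giant muscle kinase, had the lowest p with 0.454 to 4.15 FPKM in exposed worms, against 0.512, 0.593 and 0.518 FPKM in control. Germ cell and sperm proteins had 48 of 59 positive (81.4%) and a median of 0.54, and 0 members past an unadjusted 0.05. That median was 0.20 without library 3 of 0d-28d, 0.81 without control library 2, 0.25 without control library 1 and 0.03 without the 0d-28d triplet, which alone gave 1.32. PIWI1 (First_Contig345), which silences transposons in germ and stem cells, reached 288 FPKM in that library, with an exposed median of 2.32 FPKM, against 5.13, 2.31 and 2.64 FPKM in control. Globins and linkers had 9 of 22 positive and a median of -0.06, which was -0.48 without control library 1, -0.13 without control library 2, 0.64 without control library 3 and 0.03 without 0d-28d library 3. The part of these body-part proteins in the pooled comparison was not tested.

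The lists of general cell functions held no called member either. Cytosolic ribosomal proteins had a median of 0.04 over 64 members (0.02 without control library 2 and 0.13 without control library 1), mobile elements 0.05 over 545 (0.19 without control library 2 and 0.0085 without 0d-28d library 3), and mitochondrial respiratory chain proteins 0.15 over 48, of which 6 were higher (12.5%, against 2.13% of all unigenes) and 1 lower (2.08%, against 2.26%) at an unadjusted p under 0.05. The one lower was the iron-sulfur subunit of succinate dehydrogenase (contig_8875), with 177, 244 and 311 FPKM in exposed worms, against 323, 278 and 320 FPKM in control, a log2 change of -0.65 (SE 0.232, edgeR adjusted p = 0.999). The respiratory chain median was not shared by the exposed triplets. It was -0.27 in the 0d-28d triplet (13 of 48 members positive) and -0.11 in the 30d-28d triplet (23 positive). The 0d-7d triplet gave 0.31 (33 positive) and the 30d-7d triplet 0.16 (31 positive). The pooled median of this list was -0.012 without the 0d-7d triplet and 0.34 without control library 1. Glycolysis and TCA cycle enzymes had 52 of 76 positive and a median of 0.23 (0.41 without control library 1), with 0 past an unadjusted 0.05. Ion pumps and solute carriers had 123 of 175 positive (70.3%) and a median of 0.29, with 0 higher and 1 lower at that p (0.571%, against 2.26% of all unigenes). The one lower was an organic anion transporter (contig_5904), at 2.75, 4.22 and 6.68 FPKM in exposed worms, against 21.5, 3.10 and 3.16 FPKM in control. Collagens and matrix proteins had a median of 0.22 over 89 members, which was 0.33, 0.58 and 0.45 without control library 1, 2 and 3 in turn. Lipid metabolism had 0.18 over 99, which was 0.09 without control library 1, 0.36 without control library 2 and 0.06 without 0d-28d library 3. Medians close to 0 turned with 1 library. DNA replication and cell cycle had 0.06 over 147 members and -0.13 without 0d-28d library 3 (0.09 without control library 2). At an unadjusted p under 0.05, 5 of these were higher (3.4%, against 2.13% of all unigenes) and 8 lower (5.44%, against 2.26%). Proteasome and ubiquitin proteins had 0.09 over 165, -0.06 without 0d-28d library 3 and 0.17 without control library 1. At that p, 2 of them were higher (1.21%) and 8 lower (4.85%). Immune proteins had -0.05 over 83, and 0.15, 0.12 and 0.23 without control library 1, 2 and 3 in turn and 0.02 without 0d-28d library 3. Neuropeptides and reproductive hormones had a median of 0.18 over 42 members, which was 0.75 without control library 2 and 0.10 without 0d-28d library 3. GABA receptor-associated and autophagy proteins had 0.24 over 17, which was 0.07 without 0d-28d library 3 and 0.09 without control library 1. For these the 0d-28d triplet alone gave 0.36, against -0.30 for 0d-7d, -0.05 for 30d-7d and -0.04 for 30d-28d. Nuclear receptors had 0.32 over 13.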

How the data were processed

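The members and gene lists were chosen with earlier results of these data known. RNA of the 15 libraries was sequenced with standard Illumina protocols, per the labels. The authors deposited 1 table of a de novo assembly with read counts, FPKM, unigene lengths and protein matches; no source used here names the assembler, aligner or counter, or says how shared reads were handled. The deposited counts were tested as given with edgeR 4.0.16 in R 4.3.3: filterByExpr (minimum count 10, minimum total 15), TMM scaling, quasi-likelihood F test, 13 residual degrees of freedom, so that differences among exposed triplets count as spread. Common biological variation was 0.964. A fit of 5 triplets tested the exposed triplets against each other and gave the change of each triplet against control. Deposited FPKM values describe levels. They are not proportional to reads per length alike in every library: over unigenes with more than 200 reads, for those shorter than 450 bases the median ratio ran from 2.11 to 3.56 between libraries, and for those of 3000 bases or longer from 0.759 to 1.06. Alternatives used DESeq2 1.42.0 and limma 3.58.1. Named were every unigene past the adjusted p threshold of 0.05; descriptively named unigenes of at least 5 FPKM whose pools did not overlap, up to 8 with the lowest p each way; and from each list the 2 most abundant members and the one with the lowest p, of which the text gives a selection. Name searches assigned the lists. No unigene sequences were used here.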

Additional observations from a re-analysis of the deposited data

How the results depend on the processing

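All 9 calls passed unchanged with DESeq2 size factors, TMM with singleton pairing, library totals and robust edgeR. The pooled count was 79 with no filter (78 lower), 3 with at least 1 CPM in 12 libraries, 323 with DESeq2, 16 with limma-voom, and 6 and 5 with limma on log2(FPKM + 1) and log2(FPKM + 0.1). The filter of 1 CPM in 12 libraries removed contig_25905, contig_14266, contig_212370, contig_51941, contig_76215 and contig_19423 before testing, as they were too low in exposed libraries. Their loss there was fixed by the filter and is no test of them. It was 1 when the 4 triplets were averaged in the 5-triplet fit, 2 without the 0d-7d triplet, 4 without the 0d-28d triplet, 9 without the 30d-7d triplet (6 of them higher in exposed worms) and 2 without the 30d-28d triplet. Thinning to the shallowest library, chosen after seeing that the control libraries were deeper, gave 11 calls, including the 9. Leaving out 1 library gave 11 to 50 calls with the filter rerun, which then kept 110428 to 116230 unigenes. With the same 101090 unigenes, an alternative added after the data were seen, it gave 3 to 35: 3 each without 0d-7d library 3, 30d-7d library 1, 30d-28d library 1 or 30d-28d library 3, 5 each without 0d-7d library 2, 0d-28d library 1, 0d-28d library 3 or control library 3, 16 without control library 1 and 35 without control library 2. contig_50192 ranged from -6.33 (without control library 1) to 0.16 (without control library 3, where it changed sign, in both forms). The median of all unigenes exceeded 0.1 with no filter (0.109), and with the filter rerun without control library 1 (0.112), 2 (0.149) or 3 (0.101), and with the same unigenes without control library 2 (0.135). That median was below 0 with library totals (-0.0147), limma-voom (-0.0175) and the 4 triplets averaged in the 5-triplet fit (-0.043). Differences among exposed triplets numbered 528 with DESeq2, 2 with limma on log2(FPKM + 1) and 0 to 2 with a library left out. With the treatment wording as the naming (0d-7d libraries as control, the 12 others as exposed), 0 unigenes were called, 5895 at an unadjusted p under 0.05, and contig_17698 had a log2 change of 2.47 (edgeR adjusted p = 0.829). With the replicate number as a block, 3 unigenes were called. Replicate numbers are shared only as names: deviations of same-numbered libraries correlated at -0.0576 on average, above 0.1 in 3 of 30 pairs, and 3 of 15 libraries were closest to their own number. The cause of these shifts was not tested.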
